A study of Mus musculus with 6 samples.

Results

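The genes described here are the transcription factors of the Fos and Jun families, with *Egr1*, *Atf3* and *Ier3*, which are grouped with them as immediate early genes. They were chosen by symbol, and all 10 were found among the 19078 genes of the table. RNAseq was performed on poly(A)-selected RNA from pooled immortalized mouse fibroblasts (MF), with 3 libraries of *Ms4a15* OE cells and 3 of control cells. Both are male embryonic fibroblasts of a conditional *Gpx4* -/- line that expresses Cre-ERt2 and carries a CRISPR activation system. *Ms4a15* OE cells also received a guide that raises *Ms4a15* from its own locus, and control cells were infected with empty lentivirus, although the labels call them wild type. Cells were grown in serum-containing medium, and the labels name no stimulus, age or time point. The labels do not say whether the 3 libraries of a group came from separate cultures.

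The value available for each gene was the authors' mean normalized count, which is the mean over all 6 libraries of read counts corrected for library depth. *Ms4a15* OE and control libraries enter this mean together, so every level below describes the fibroblasts of both groups pooled. Single libraries were not analysed here, and *Ms4a15* OE was not compared with control. No spread between replicates can be given, and the 95% intervals below are exact Poisson intervals that cover counting error only. The means add up to 40991755 normalized counts per library. The targeted gene *Ms4a15* had a mean of 638 normalized counts, which does not check the labels of single libraries.

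Immediate early genes are switched on within minutes of a growth factor, calcium or stress signal, without new protein synthesis. Fos and Jun proteins pair through leucine zippers to form the transcription factor AP-1, and Jun proteins can also pair with one another, whereas Fos proteins need a Jun partner. In fibroblasts, *Fos* and *Egr1* are the classical genes of the brief response to serum, while *Fosl1* is a later and longer-lived member of the Fos family.

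Promoters of immediate early genes often hold cAMP response elements (CRE), which bind CREB and ATF factors, and a TATA box, which places the start of transcription. Before the RefSeq start, the CRE core TGACGT was in 2 of the 8 members with a promoter window and 6.47% of all promoters. The CRE-like site TGANNTCA leaves the 2 centre bases open and was in 2 of these members and 11.9% of all promoters. The TATA box was in 1 of these members and 12.4% of all promoters. The stretches below are shown because they are all the matches that end before the RefSeq start, in *Fos*, *Jun*, *Jund* and *Atf3*. They are RefSeq sequences of GRCm38.p6, read 5′ to 3′ on the strand of the gene, with capitals marking the match.
*Fos*, CRE core, chr12:85473812-85473841, plus strand: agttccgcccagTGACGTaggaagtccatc
*Fos*, TATA box, chr12:85473845-85473874, plus strand: tcacagcgcttcTATAAAggcgccagctga
*Jun*, CRE-like site, chr4:95052248-95052279, minus strand: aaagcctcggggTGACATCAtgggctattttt
*Jund*, CRE-like site, chr8:70697666-70697697, plus strand: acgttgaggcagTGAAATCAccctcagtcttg
*Atf3*, CRE core, chr1:191183334-191183353, minus strand: attaatagcattACGTCAgc
The match in *Fos* begins 66 bases before the RefSeq start for the CRE core and 33 bases before it for the TATA box. The match in *Jun* begins 45 bases and that in *Jund* 61 bases before the RefSeq start. Neither of these CRE-like matches holds the CRE core TGACGT, and binding was not tested. The match in *Atf3*, which reads as the reverse complement of the CRE core, begins 8 bases before a RefSeq start that lies 34706 bases from the outermost GENCODE start, inside the gene. The RefSeq start of *Jund* lies 1210 bases from the GENCODE start.

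Among the members, *Ier3* and *Fosl1* stood far above *Fos*, *Fosb* and *Atf3*. Levels of different genes were compared per kilobase of exonic sequence, since a longer transcript gives more reads. *Ier3*, which encodes a small stress-inducible protein that acts on cell survival, was the highest, at 4894 normalized counts per kb (95% interval 4838 to 4950). *Fosl1* followed at 3055 (3023 to 3089). *Junb*, *Fosl2* and *Jun* formed the middle, at 1030, 625 and 482 normalized counts per kb. *Jund* and *Egr1* lay below them, *Fos* and *Fosb* lower still, and *Atf3* was near the limit of detection.

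**Figure D1:**
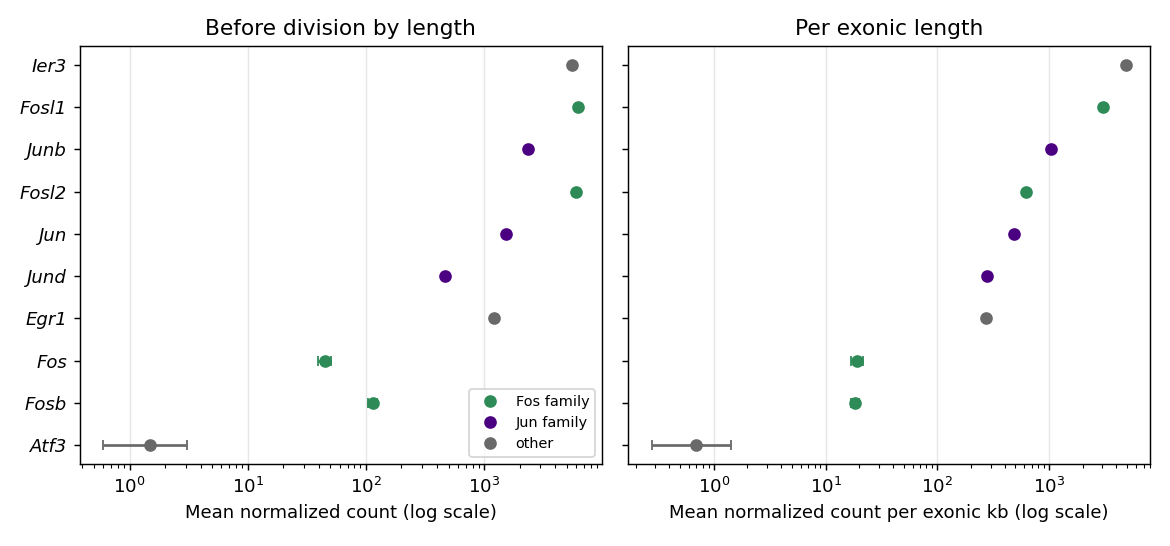
Authors' mean over all 6 libraries for each member, as normalized counts (left) and as normalized counts per exonic kb (right), both on log axes. Points are coloured by family and bars are 95% intervals for counting error only, mostly narrower than the points. *Fosl2* stands near *Fosl1* on the left and well below it on the right, because its exonic length is 9680 bases against 2033.

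The Fos family was almost entirely made up of *Fosl1* and *Fosl2*. *Fosl1* (ENSMUSG00000024912.6) encodes FRA-1 and lies on chromosome 19 of GRCm38 from 5447547 to 5455946. Its mean was 6212 normalized counts (95% interval 6145 to 6279), and it took 82.2% of the summed level per kb of the 4 Fos genes. *Fosl2* (ENSMUSG00000029135.10), which encodes FRA-2, lies on chromosome 5 from 32135801 to 32157842. Its mean was 6047 normalized counts (5981 to 6114), and its share of the family was 16.8%. The levels of *Fosl1* and *Fosl2* per kb differed 4.89-fold, beyond counting error, whereas their means before division by length differed 1.03-fold. The ratio was 3.60 with the longest transcript and 1.23 per kb of coding sequence, so the split between these genes depends on the length used. The 2 FRA genes together held 99.0% of the Fos family per kb, and between 98.7% and 98.9% under the 3 other treatments of length that were tried.

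*Fos* and *Fosb*, whose proteins carry the strong transactivation domains of the family, were low. *Fos* (ENSMUSG00000021250.13) lies on chromosome 12 from 85473890 to 85477273. Its mean was 45.0 normalized counts (39.5 to 51.1), which rests on between 239 and 308 reads over all 6 libraries. *Fosb* (ENSMUSG00000003545.3) lies on chromosome 7 from 19302696 to 19310051 and had a mean of 114 normalized counts (105 to 123). Per kb, *Fos* was at 19.2 and *Fosb* at 18.2 normalized counts, and these neighbours did not differ beyond counting error. With the length of the longest transcript in place of the merged exons, *Fosb* was the higher of the pair, at 30.1 against 21.4. *Fosl1* was 160-fold above *Fos* per kb and 168-fold above *Fosb*. With the longest transcript, the coding sequence and no division by length, the ratio to *Fosb* was 111, 67.6 and 54.6, whereas the ratio to *Fos* stayed between 138 and 192.

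All 3 Jun genes were expressed, and *Junb* was the highest of them. *Junb* (ENSMUSG00000052837.6), which often restrains the activity of c-Jun, lies on chromosome 8 from 84974484 to 84978718 and had a mean of 2370 normalized counts (2328 to 2411). It took 57.5% of the summed level per kb of the Jun family. *Jun* (ENSMUSG00000052684.4), the gene of c-Jun, lies on chromosome 4 from 95049034 to 95052222 and had a mean of 1537 normalized counts (1504 to 1571), with 26.9% of the family. *Jund* (ENSMUSG00000071076.6), a member known for steady rather than transient expression, lies on chromosome 8 from 70698949 to 70700616. Its mean was 467 normalized counts (448 to 485), and its share was 15.6%. Per kb, *Junb* exceeded *Jun* 2.14-fold and *Jun* exceeded *Jund* 1.72-fold, both beyond counting error. This order held under all 4 treatments of length. *Junb* exceeded *Jun* by between 1.497-fold, per kb of coding sequence, and 2.72-fold, with the longest transcript. *Jun* exceeded *Jund* by between 1.72-fold and 3.36-fold. The Fos family summed to 2.07 times the Jun family per kb, and to between 2.08 and 3.25 times under the other treatments.

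*Egr1*, *Atf3* and *Ier3* lie outside the AP-1 core and covered the whole range of levels. *Egr1* (ENSMUSG00000038418.7), a zinc finger factor, lies on chromosome 18 from 34859823 to 34864984. Its mean was 1218 normalized counts (1189 to 1248), or 272 per kb. Its level per kb did not differ beyond counting error from that of *Jund*, at 280, and was 14.2-fold above that of *Fos*. The ratio to *Fos* was 12.7 with the longest transcript, 19.3 per kb of coding sequence and 27.0 without division by length. Per kb of coding sequence *Egr1* was the higher of these neighbours, at 762 against 456 for *Jund*. *Ier3* (ENSMUSG00000003541.6) lies on chromosome 17 from 35821684 to 35822923, had a mean of 5535 normalized counts (5472 to 5598) and has the shortest exonic length of the members, 1131 bases. Before division by length, *Ier3* ranked below *Fosl1* and *Fosl2*.

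*Atf3* (ENSMUSG00000026628.13), a bZIP factor induced by stress that can pair with Jun proteins, lies on chromosome 1 from 191170296 to 191218039. Its mean was 1.49 normalized counts (0.60 to 3.08). A single combination of whole reads gives this mean, with 9 reads over all 6 libraries and no more than 4 in any of them. The floor of 3 counts per library lies between 2.64 and 3.38 normalized counts, so *Atf3* was under it on average and no fold change against it is given.

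Set against all 16161 genes with an annotated length, 7 of the 10 members were above the median level of 117 normalized counts per kb. *Ier3* was above 97.8% of these genes and *Fosl1* above 96.1%, and these were the 2 members within the top 10%. *Junb*, *Fosl2* and *Jun* were above 86.8%, 78.8% and 74.0% of them, and *Jund* and *Egr1* above 63.9% and 63.3%. *Fos* and *Fosb* were above 35.7% and 35.3%, and *Atf3* above 18.0%. Among the 11713 genes that also had a mean of 10 or more normalized counts, these shares were lower. *Ier3* was above 97.0% of them, *Fosl1* above 94.6%, *Junb* above 81.8%, *Fosl2* above 70.7% and *Jun* above 64.1%. *Jund* and *Egr1* lay close to the median of these genes, above 50.2% and 49.4%. *Fos* was above 11.8% and *Fosb* above 11.3%. The median of the 10 members was 381 normalized counts per kb.

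**Figure D2:**
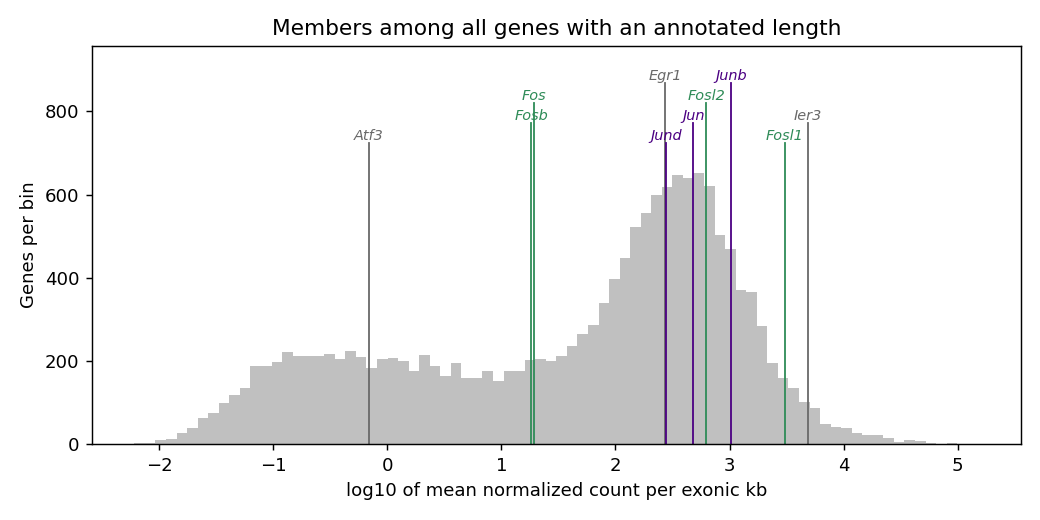
Histogram of the log10 mean normalized count per exonic kb for the 16161 genes with an annotated length, in 80 bins, with a vertical line for each member. *Ier3* and *Fosl1* lie in the right tail, *Fos* and *Fosb* left of the main peak, and *Atf3* far to the left.

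The upstream kinases and factors that act on these genes were present almost throughout. Of 26 listed, 25 were in the table and 24 reached a mean of 10 normalized counts, the minimum used here for lists, as did 67.7% of all genes of the table. *Map2k3*, an activator of p38, was highest at 2393 normalized counts per kb, and the kinase gene *Mapk3* was at 1949. The serum response factor gene *Srf* had a mean of 2746 normalized counts. The median of this list was 325 normalized counts per kb, beside 117 for all genes and 278 for the genes that reached the minimum.

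Other bZIP factors, listed as partners and relatives of AP-1, were also measured. Of 26 listed, 25 were in the table and 21 reached that minimum, with a median of 278 normalized counts per kb. *Atf4*, the central factor of the integrated stress response, was highest at 8458 normalized counts per kb, above every AP-1 gene. *Atf1* and *Nfe2l1* followed at 2915 and 1766. *Batf* and *Batf3*, AP-1 partners of lymphoid and myeloid cells, had means of 2.48 and 0.539 normalized counts.

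Among the other immediate early genes, 33 of 34 were in the table, and 31 reached that minimum. *Cyr61* and *Ctgf*, which encode matricellular proteins, were highest at 9669 and 4778 normalized counts per kb, and *Myc* was at 3510. The close relatives of *Egr1* were lower than *Egr1* itself before division by length, with means of 29.0 normalized counts for *Egr2* and 327 for *Egr3* against 1218. The median of this list was 309 normalized counts per kb.

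Of 20 genes often given as AP-1 targets, 18 were in the table and 16 reached that minimum. The list had a median of 1178 normalized counts per kb, with *Spp1*, the gene of osteopontin, at 42525 and *Timp1*, a metalloprotease inhibitor, at 12343. The matrix metalloprotease genes of this list were low, with means of 138 normalized counts for *Mmp13*, 33.9 for *Mmp3*, 6.74 for *Mmp9* and 5.25 for *Mmp10*. *Il6*, of the same list, was also low, with a mean of 40.0 normalized counts. These low genes were named here after their values were seen.

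The label of the cells was checked against defining markers. Of 13 fibroblast markers, 12 reached that minimum, as did 67.7% of all genes of the table. *Vim*, *S100a4* and *Sparc* were highest at 24275, 22015 and 12184 normalized counts per kb, while *Lum* had a mean of 0.675 normalized counts. *Dcn*, with a mean of 12.1 normalized counts, passed narrowly at 2.07 normalized counts per kb, and *Pdgfra* was at 27.7 per kb, and both were under the median of all genes. Epithelial markers passed this minimum in 3 of 9 cases and had a list median of 0.255 normalized counts per kb, with *Krt14*, *Ocln* and *Krt8* highest at 96.9, 69.9 and 5.56. Endothelial markers passed it in 2 of 6 cases, and *Cdh5*, *Pecam1* and *Tek* were highest at 25.3, 2.56 and 0.293 normalized counts per kb. Of 9 haematopoietic markers 7 were in the table and 5 passed, a share of 71.4% that lay near that of all genes. Their list median was 2.29 normalized counts per kb. *Lyz2*, *Cd14* and *Cd68* were highest at 405, 216 and 131 normalized counts per kb, above 70.7%, 59.5% and 51.4% of genes with a length. The defining *Ptprc* had a mean of 11.1 normalized counts. The part of other cells in the levels of the members was not tested.

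**Figure D3:**
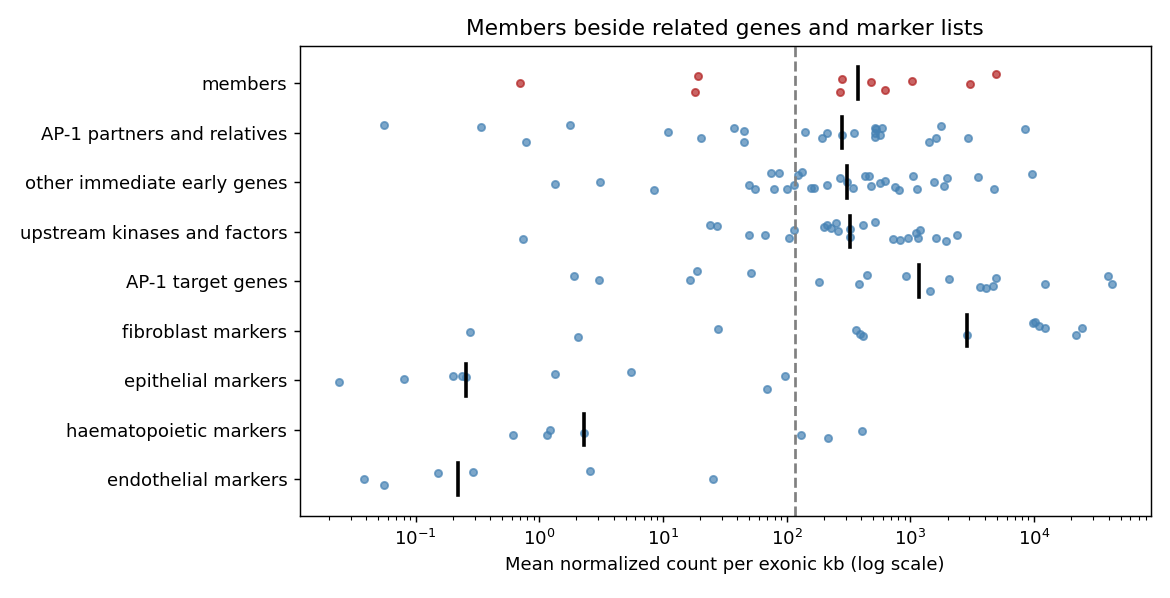
Mean normalized count per exonic kb on a log axis for the 10 members (red) and for each list of related genes and cell type markers (blue), 1 point per gene. Black bars are list medians and the dashed line is the median of all genes, 117. The members' median of 381 lies near those of the upstream kinases and other immediate early genes and below that of the AP-1 targets.

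Most members have a compact gene structure. The median genomic span of the 10 members was 4699 bases, beside 23220 for the 15421 coding genes of the table. Of the 10 members, 8 spanned under 10 kb, as did 25.9% of those coding genes. The representative transcript, the one with the longest coding sequence, had no more than 4 exons in all 10 members and in 22.1% of coding genes. That transcript has a single exon in *Jun*, *Junb* and *Jund*, and in 2.86% of coding genes, although *Junb* also has a second annotated transcript and spans more than its exonic bases. *Atf3*, spanning 47744 bases, and *Fosl2*, spanning 22042, were the 2 members above 10 kb, and only *Atf3* exceeded the median of coding genes.

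Transcripts of immediate early genes are known for rapid decay through AU-rich elements in the 3′ UTR. The pentamer ATTTA occurred in the 3′ UTR of all 10 members and in 66.6% of the 14188 coding genes with at least 100 bases of 3′ UTR. Its density was above the median of 1.24 per kb in 9 members, of which *Fosl1* and *Jund* hold only 1 pentamer each, in 638 and 533 bases. *Ier3*, the member with the highest level, also had the highest density, with 5 pentamers in 613 bases or 8.16 per kb, above that of 98.4% of genes. *Fos* had 4 in 815 bases, 4.91 per kb, and *Junb* 2 in 485 bases, 4.12 per kb. *Fosb* was the exception, with 1 in 2145 bases. The nonamer TTATTTATT, a stricter form of the element, was found in *Fos* and *Fosl2* and in 7.25% of all these genes. A match is a description of the letters and does not show that the element acts in these cells, and RNA decay was not measured.

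**Figure D4:**
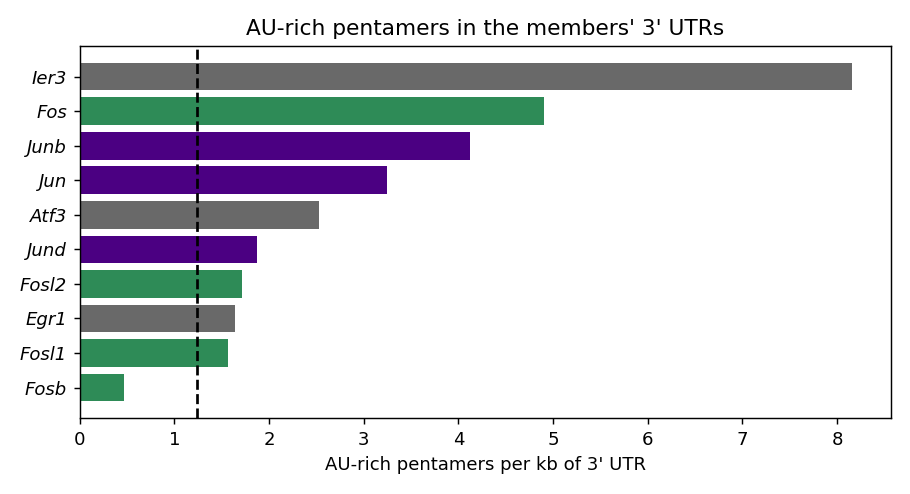
Number of AU-rich pentamers per kb of 3′ UTR for each member, coloured by family as in the plot of levels, with a dashed line at the median of all coding genes, 1.24. *Ier3* is highest at 8.16, and *Fosb*, at 0.466, is the only bar left of the line.

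RefSeq promoter windows, from 250 bases before to 50 after the start, were matched for 8 of the 10 members, and *Egr1* and *Fosl1* were not matched. Motifs were searched on both strands, and a full palindromic CRE would count for the CRE core and the CRE-like site alike. The CRE core TGACGT was found in *Fos* and *Atf3*, and in 7.51% of all 32851 promoters. The CRE-like site TGANNTCA was found in *Jun* and *Jund*, and in 14.1% of all. The TATA box TATAAA was found in *Fos* and *Junb*, and in 13.6% of all. Neither the AP-1 site TGACTCA nor the CArG box, the binding site of SRF, was in any of the 8 windows, and these were in 5.20% and 1.63% of all promoters. Absence says only that these letters are not in this window. The RefSeq start of *Fosl2* lies 671 bases from the GENCODE start, so its window, like those of *Jund* and *Atf3*, does not stand at the GENCODE start. For *Junb*, *Ier3* and *Fosb* the RefSeq and GENCODE starts differ by 30, 29 and 6 bases.

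Several members share exonic sequence with a gene on the opposite strand, where reads can be told apart only if strand was used in counting. *Fosl1* shares 1163 exonic bases, 57.2% of its length, with *Ccdc85b*, which had a mean of 210 normalized counts. *Junb* shares 173 bases with *Prdx2*, a peroxiredoxin gene with a mean of 9170 normalized counts. *Jund* shares 877 bases, 52.6% of its length, with the antisense gene *Gm11175*. *Jun* shares 232 bases with its antisense gene *Junos*. The labels describe strand-specific libraries, whereas the published methods name a protocol without that word, and the strand setting of the counting is not given in the sources used here. The counting intervals of *Fosl1*, *Jun*, *Junb* and *Jund* do not cover reads gained or lost in these overlaps, which was not tested.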

How the data were processed

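Poly(A)-selected RNA of 3 *Ms4a15* OE and 3 control libraries was sequenced. The published methods describe alignment with STAR to mm10 with UCSC knownGene, read counting with HTSeq-count and comparison with DESeq2, whereas the submitters' processing notes also list TopHat, Cufflinks and Cuffdiff. The authors' deposited table gives 1 signal per gene, its mean count over all 6 libraries after division by size factors. The 5 other columns hold the authors' own comparison of the groups (fold change, standard error, p-value, adjusted p-value and direction) and were not used here. The planned edgeR test on counts was not run, because single libraries were not analysed here.

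Means were divided by merged exonic length from GENCODE M21 (GRCm38), which differs from the annotation of the authors. Of 19078 genes, 16161 were matched, 1485 of them by an older symbol, and these hold 97.3% of all normalized counts. Size factors of the 6 unnamed libraries, from 0.887 to 1.14, were worked out from the smallest means, which stand for 1 read in all. Whole reads in these steps gave the mean of all 2111 genes under 0.5 normalized counts, with a tolerance of 1e-08. Reads behind each mean were bounded with the lowest and highest size factor, and Poisson intervals use the lower bound. Motifs were searched in RefSeq promoters of GRCm38.p6, and 3′ UTRs were taken from GENCODE transcripts. All members were named, and of each list the 3 genes with the highest level per kb, except for some that are not reported here. Other genes were named after their values were seen. The members and lists were chosen with earlier results of these data known. The percentiles, the search for planted AP-1 sites and the recovery of size factors were tested on simulated data, and the merging of exons on a made-up example. The other procedures were not tested in this way. Computations used Python 3.11.15, numpy 2.4.6, pandas 2.3.3, scipy 1.17.1 and matplotlib 3.10.9.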

Additional observations from a re-analysis of the deposited data

How the results depend on the processing

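The members' median of 381 normalized counts per kb was the same with the length of the longest transcript. It became 1148 per kb of longest coding sequence and 1378 normalized counts without division by length, since the divisor is smaller or absent. The rank of 2 of 10 members changed with the longest transcript, of 6 with the coding sequence and of 8 without division. Per kb of coding sequence *Fosl2* stood above *Junb*, at 6183 against 2296. With genes under a mean of 10 normalized counts left out, 6 members in place of 7 were above the median, and *Egr1* was the one lost. Restricting promoters to the bases before the RefSeq start left the TATA box in 1 member in place of 2. The match in *Junb* begins at the RefSeq start, 30 bases upstream of its GENCODE start, and was lost by this restriction. The counts of the other 4 motifs were unchanged by this, and an AP-1 site with any centre base (TGANTCA) was in 0 of the 8 windows as well. The planned comparison of *Ms4a15* OE with control, with its other normalization, filter and leave-one-out alternatives, was not run. No paired analysis was possible because the samples enter only as 1 pooled mean per gene. Counting error limits *Atf3* and, to a lesser degree, *Fos* and *Fosb*, and the spread between libraries is not known for any member.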
